A study of Mus musculus with 11 samples.

Results

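The miRNAs described here are 72 of the 592 miRNAs measured in mouse embryonic stem (mES) cells with and without Trim71. They were taken by name, as every row whose hairpin number is miR-297, miR-466, miR-467 or miR-669, whatever its letter, copy number or arm. Earlier results of these data were known when the names were chosen. The miR-466 family had 29 rows, miR-669 25, miR-467 12 and miR-297 6. By arm, 33 rows were 3p, 32 were 5p, and 7 had no arm in their name (miR-466f, miR-466g, miR-466j, miR-466k, miR-467f, miR-467h and miR-669i).

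Small RNA was sequenced from mES cells that carry floxed Trim71 alleles and a tamoxifen-inducible Cre driven from the Rosa26 locus, on the C57BL/6 strain. Both genotypes share these alleles. Trim-/- cells had received 4-hydroxytamoxifen (4-OHT), at 500 nM for 2 days by the labels, which removes the last exon of Trim71, and were then grown for at least 7 days. Trimfl/fl cells kept that exon, and the study's methods give the solvent DMSO as their treatment. These methods give a lower 4-OHT dose than the labels, and 5 days of culture after the treatment. All cells were sorted magnetically for the stem cell antigen SSEA-1. The table holds 5 Trim-/- and 6 Trimfl/fl libraries from 2 clones: days 1, 5 and 6 gave a pair of clone 1, days 3 and 4 a pair of clone E3, and day 2 a single Trimfl/fl library of clone E3. The table has no mRNA, so the deletion itself could not be checked in it, nor the level of any host gene.

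MicroRNAs are cut from a hairpin whose 5p and 3p arms can both give a mature strand, and the bases near the 5′ end of that strand, the seed, select the mRNAs it represses. Sfmbt2 encodes a Polycomb-group protein and is an imprinted gene expressed from the paternal allele in the early embryo and the placenta. In the mouse, 1 of its introns carries a large array of miRNA hairpins that arose by repeated local duplication, so that many copies are nearly alike and short reads can often be placed on several of them. Trim71 is an RNA-binding protein of early development and a target of let-7.

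On GRCm38 with the GENCODE M21 annotation, Sfmbt2 lies on the forward strand at chr2:10370510-10595253. The hairpins of the 72 miRNAs, matched by name, have 69 annotated loci inside it. All 69 lie in intron 11 of transcript Sfmbt2-205, which has 23 exons, on the same strand as the gene, and they span 51.6 kb (chr2:10466663-10518279) of the 62.5 kb intron (chr2:10461473-10523944). Of the 72 miRNAs, 59 have every annotated locus in the intron. miR-297a-5p, miR-297a-3p, miR-466f, miR-466f-5p and miR-466f-3p have 3 of their 4 loci there and 1 on another chromosome. 6 lie elsewhere in full, namely miR-466i-5p and miR-466i-3p (chromosome 13, antisense within Cdk13), miR-466j (chromosome 10), miR-466k (chromosome 3, antisense within Gm37240), miR-467f (chromosome 11, antisense within Fxr2) and miR-467h (chromosome 9). miR-466a-5p and miR-466a-3p had no locus of that name in the annotation. The name rule therefore takes in miRNAs that are not in Sfmbt2.

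The RefSeq table used here held the mature sequence of 5 of the 72, all of them among those outside Sfmbt2. They come from miR-466 and miR-467 only, so the seeds of miR-297, miR-669 and the members inside Sfmbt2 could not be compared. The seed, bases 2 to 8, is in capitals, on GRCm38.p6.
miR-466i-3p: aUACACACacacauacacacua
miR-466j: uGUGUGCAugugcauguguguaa
miR-466k: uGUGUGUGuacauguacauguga
miR-467f: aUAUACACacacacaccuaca
miR-467h: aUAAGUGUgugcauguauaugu

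They lie at chr13:17747552-17747573 (forward), chr10:60960802-60960824 (forward), chr3:85467396-85467418 (forward), chr11:69635419-69635439 (reverse) and chr9:115381898-115381919 (forward). Each was rich in 1 repeated dinucleotide. The dinucleotides CA or AC made up 71.4% of the positions of miR-466i-3p and 65.0% of those of miR-467f, against a median of 10% over the 463 rows of the table with a RefSeq sequence, and UG or GU made up 63.6% of miR-466j, 59.1% of miR-466k and 47.6% of miR-467h, against a median of 15.8%. Their 5 seeds all differed, and 0 of the 458 rows outside the 4 families with a RefSeq sequence had one of them. Similar repeats also occur outside the families, and 2 such rows, both on chromosome 5, are shown for comparison. UG or GU made up 72.7% of miR-1187 and 81.8% of miR-574-5p.
miR-1187: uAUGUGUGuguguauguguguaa
miR-574-5p: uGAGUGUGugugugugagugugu

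The deposited values are normalized read counts, corrected for batch and raised to 1 where they were lower. This correction left its mark: for all 72 miRNAs, the Trim-/- and Trimfl/fl values of a day added up to the same sum on every day where no value was at the floor (within 0.1%). Consequently the SDs of both groups are nearly equal, a miRNA that was lower in Trim-/- on all 5 days also has groups that do not overlap, and levels carry no information on differences between days. The day 2 value equalled the mean of the other Trimfl/fl values in 72 of 72 and was left out of the tests. The summed values of all 592 miRNAs per library were between 2742670 and 5551710 and are no measure of depth, which is unknown. The 5 pairs come from repeated days of 2 clones, and p-values measure only the spread between those days, which may be technical.

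The families were present at very different levels. Over the 10 paired libraries, the 72 miRNAs summed to a mean of 61901 normalized read counts. miR-467 gave 49.8% of that sum, miR-669 30.5%, miR-466 18.0% and miR-297 1.71%, and 5p strands gave 60.3%. The highest member was miR-467a-5p, with a mean of 13594, 22% of the sum and rank 32 of all 592. It was followed by miR-467b-5p at 6840, miR-669c-5p at 5646, miR-669o-3p at 3461 and miR-669a-3p at 3436. 13 miRNAs had a mean of 1000 or more and made up 79.0% of the sum, 32 lay from 100 to under 1000, and 27 below 100. The median over the 72 was 159.4, and 40 were above the median of all miRNAs, 141.9. Because the values are read counts of strands of nearly equal length, levels can be set beside each other, but not as amounts of RNA, since ligation and shared reads were not measured.

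Which strand was higher differed between hairpins. Of the 30 hairpins with both arms in the table, 13 had the higher value on the 5p arm in all 10 libraries, 12 on the 3p arm, and 5 (miR-297c, miR-466n, miR-669b, miR-669h and miR-669m) were mixed. 4 of 5 miR-467 hairpins favoured 5p and 8 of 12 miR-466 hairpins favoured 3p. In miR-669, 4 of 10 favoured 5p, 3 favoured 3p and 3 were mixed. The ratio of 5p to 3p means was 298 for miR-669c and 177 for miR-467b, which gave almost all their reads from the 5p arm. It was 0.0180 for miR-466d and 0.0253 for miR-466i, in which the 5p strand was the minor one. miR-467a gave both strands in quantity, at 13594 for 5p and 2783 for 3p and the rows of miR-467d had 111.2 for 5p and 2913 for 3p. The 3p rows of both hairpins were within 10% of each other in every library and could share reads, so that a difference between these hairpins is not shown.

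**Figure D1:**
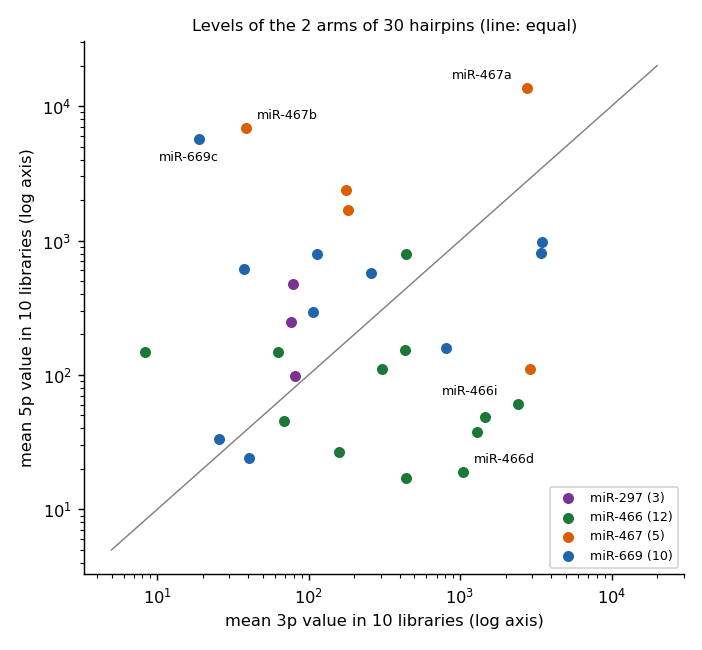
Mean normalized read count of the 3p arm (x axis, log scale) and of the 5p arm (y axis, log scale) over the 10 paired libraries, 1 point for each of 30 hairpins, with colours for the families and a line where the arms are equal. miR-669c and miR-467b lie far to the 5p side at ratios of 298 and 177, and miR-466d and miR-466i far to the 3p side.

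3 pairs of rows were within 10% of each other in every library, namely miR-466b-3p and miR-466p-3p, miR-467a-3p and miR-467d-3p, and miR-669a-3p and miR-669o-3p. Such rows could share reads and are not independent.

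The central comparison was Trim-/- against Trimfl/fl in the 5 same-day pairs. Most members had a slightly lower fitted mean without Trim71. The fitted log2 difference (Trim-/- minus Trimfl/fl, on log2(value + 1)) was below 0 for 65 of 72, against 48.8% of all 592 miRNAs, and its median was -0.27, against 0.03 over all miRNAs. The number below 0 was 58 without day 5 and 49 in clone E3 alone. Few single miRNAs passed the test: 0 members were higher and 3 were lower at a fold over 1.5 and an unadjusted p under 0.05, limma with day as block. Over all miRNAs, 5.41% passed these thresholds, 4.56% lower and 0.845% higher, and the 3 of 72 are close to that share. It was carried largely by 1 cluster, since 19 of the 27 lower rows were among the 48 of the imprinted Dlk1-Dio3 region, and 5 were among the 472 rows outside both that region and the 4 families. Without day as a block, 8 members were lower, beside 9.97% of all miRNAs. After division by library totals 7 were lower, beside 8.11% of all miRNAs, and the median of the 72 was -0.54, where that of all miRNAs was -0.24. Both counts include miR-466o-3p, which, like miR-669k-5p, had a mean under 10 in Trim-/- and passed the authors' filter (a mean of at least 10 in either group) only through Trimfl/fl, so that a lower value was favoured. None of the 592 reached an adjusted p under 0.05, and the smallest was 0.607. By the unadjusted p alone, 32 of 592 and 3 of 72 were under 0.05.

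All 4 families had a median below 0. It was -0.43 for miR-297, with 6 of 6 below 0, and -0.39 for miR-669, with 23 of 25 below 0. It was -0.28 for miR-467, with 11 of 12 below 0, and -0.21 for miR-466, with 25 of 29 below 0. Without day 5 the median of miR-669 was -0.23, and without day 6 that of miR-467 was -0.43. By arm the median was -0.35 over the 3p rows, 32 of 33 below 0, and -0.23 over the 5p rows, 27 of 32 below 0. This order rested on day 4, without which the medians were -0.28 and -0.34. The 7 rows with no arm had -0.20. Within families, the 3p strands of miR-467 had -0.50 and the 5p strands -0.19, those of miR-669 had -0.42 and -0.24, and those of miR-466 had -0.22 and -0.25. In miR-297 they were -0.34 for 3p and -0.84 for 5p, but of its 3 5p rows miR-297c-5p had a value at the floor on day 1, and without day 1 miR-297a-5p had -0.39. These medians are descriptions of rows that share reads, loci and libraries, and no test was made on them.

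**Figure D2:**
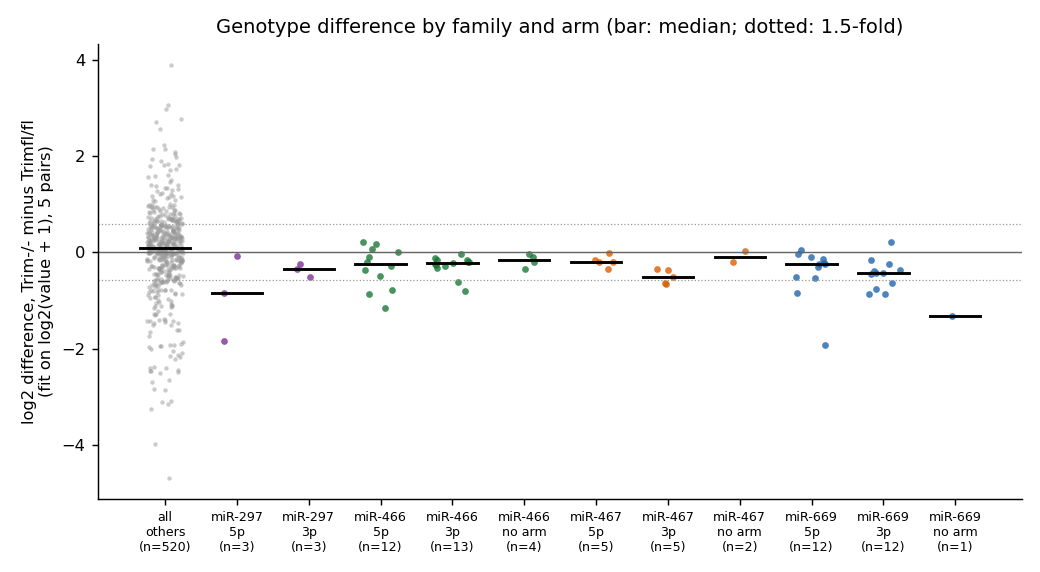
Fitted log2 difference between Trim-/- and Trimfl/fl (y axis) for each miRNA, by family and arm, with all 520 other miRNAs at the left. Bars are medians and dotted lines mark a 1.5-fold change. The members lie between -1.92 and 0.21, most of them just below 0, while the others spread from -4.69 to 3.90.

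The size of the shift differed between days. For days 1, 3, 4, 5 and 6 in turn, the median log2 difference of the 72 was -0.53, -0.10, -0.21, -0.49 and 0.05. The number lower in Trim-/- was 65, 44, 42, 67 and 32 of 72 on these days, against 51.2%, 50.8%, 49.7%, 50.2% and 49.0% of all miRNAs. Days 1 and 5 were therefore low for nearly every member and day 6 was not low over the 72 as a whole. On day 6 miR-297 still had a median of -0.22, with 4 of 6 lower, and the 5p rows of miR-466 had -0.18, with 7 of 12 lower, while miR-467 had 0.16, with 2 of 12 lower. All 3 of these days are from clone 1. The summed value was 50757, 56509, 60138, 53546 and 62683 in Trim-/- on days 1, 3, 4, 5 and 6, and 73252, 67240, 63612, 70204 and 61066 in Trimfl/fl. The sum was lower in Trim-/- on 4 of 5 days, at 56727 ± 4820 against 67075 ± 4901 (SD, n = 5 each). The ranges overlapped, from 50757 to 62683 and from 61066 to 73252. As a share of all miRNA values it was 0.964% to 1.603% in Trim-/- and 1.47% to 2.56% in Trimfl/fl, also lower on 4 of 5 days. The total of all miRNAs, the denominator of that share, was higher in Trim-/- on 4 of 5 days, with a log2 ratio of 1.02 on day 5.

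**Figure D3:**
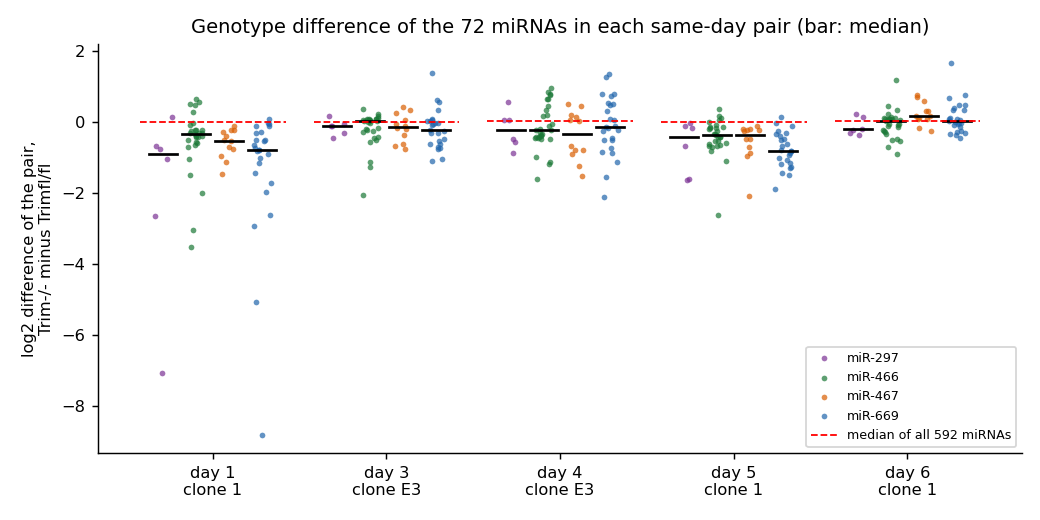
Log2 difference between Trim-/- and Trimfl/fl (y axis) of each of the 72 miRNAs in each same-day pair (x axis, with the clone), coloured by family, with black bars for family medians and red dashes for the median of all 592 miRNAs. Days 1 and 5 lie below 0 for 65 and 67 of 72, and day 6 for 32. The lowest points on day 1 are values at the floor of 1.

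The 3 lower miRNAs all had means under 100. Each passed the thresholds with all 5 pairs, but none did without day 1 or without day 3. miR-466a-5p also lost its call without day 4 or day 5, and miR-669m-3p without day 4 or day 6. With all pairs, miR-669m-3p also lost its call in limma with trend and with a pseudocount of 10, and miR-466d-5p on untransformed values. miR-466d-5p, from the single Mir466d locus at chr2:10511967-10512062, is the minor strand of its hairpin. Its normalized read counts in Trimfl/fl were 30.9, 27.2, 28.99, 19.9 and 23.8 on days 1, 3, 4, 5 and 6. In Trim-/- they were 6.86, 10.6, 8.82, 17.9 and 14.03 on the same days. All 5 Trim-/- values were under all 5 Trimfl/fl values, with the smallest gap on day 5. The means were 11.6 ± 4.398 (SD, n = 5) and 26.2 ± 4.398 (SD, n = 5), and the log2 difference was -1.16 (SE 0.35, unadjusted limma p = 0.0156, adjusted p = 0.607, exact permutation p = 0.0625).

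miR-466a-5p is likewise the minor strand of miR-466a, at 37.7 against 1300.4 for 3p. It had 56.1, 43.8, 50.6, 46.7 and 41.2 in Trimfl/fl and 19.3, 31.6, 24.8, 28.7 and 34.2 in Trim-/- on days 1, 3, 4, 5 and 6. The groups did not overlap, and every day was lower. The log2 difference was -0.78 (SE 0.28, unadjusted limma p = 0.0319, adjusted p = 0.607, exact permutation p = 0.0625).

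miR-669m-3p, whose hairpin has 2 annotated copies (Mir669m-1 and Mir669m-2), came from a hairpin in which neither arm was higher in all libraries. It had 62.6, 47.5, 52.7, 44.1 and 46.9 in Trimfl/fl and 18.3, 33.5, 28.3, 36.8 and 34.1 in Trim-/- on the same days. Again every day was lower and the groups did not overlap. The log2 difference was -0.76 (SE 0.30, unadjusted limma p = 0.0471, adjusted p = 0.607, exact permutation p = 0.0625). For each of the 3, an exact permutation of genotypes within days gave p = 0.0625 (two-sided), the smallest that 5 pairs allow.

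The other strands of these hairpins had smaller differences. miR-466d-3p, the abundant strand, had 970.2 ± 120.5 (SD, n = 5) in Trim-/- and 1129 ± 120.5 (SD, n = 5) in Trimfl/fl, with a log2 difference of -0.22 (SE 0.25, unadjusted limma p = 0.414, adjusted p = 0.716, exact permutation p = 0.1875), and -0.11 without day 5 and -0.33 without day 6. miR-466a-3p had 1226 ± 95.4 (SD, n = 5) and 1374 ± 95.4 (SD, n = 5), a difference of -0.16, and -0.098 without day 5. miR-669m-5p had 23.2 ± 2.97 (SD, n = 5) and 24.99 ± 2.97 (SD, n = 5), a difference of -0.10, and 0.029 without day 3. Each had values in both directions over the days and groups that overlapped, and none of the 3 passed the thresholds. Whether the called strand moved more than its other strand was tested on the log2 ratio of 3p to 5p. The shift was 0.94 for miR-466d (SE 0.44, unadjusted limma p = 0.0769, exact permutation p = 0.125), 0.62 for miR-466a (SE 0.35, unadjusted limma p = 0.128, exact permutation p = 0.0625) and -0.65 for miR-669m (SE 0.41, unadjusted limma p = 0.161, exact permutation p = 0.1875). None passed an unadjusted p under 0.05 with day as block and all 5 pairs. miR-466d did without day 5, and all 3 did without the block. These hairpins were taken because a strand of each had passed the thresholds. That choice favours a larger move of the called strand, so nothing is read from these p-values.

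**Figure D4:**
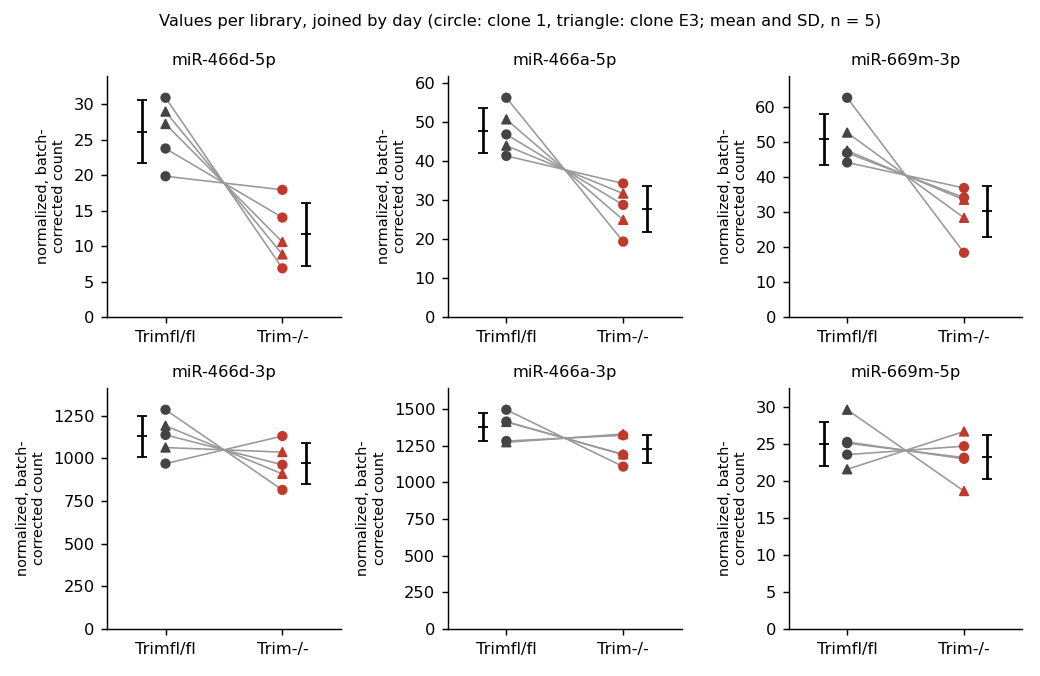
Normalized, batch-corrected read counts (y axis, from 0) in the 5 Trimfl/fl and 5 Trim-/- libraries, joined by day, with the mean and SD of 5 values beside each group. The upper row shows the 3 miRNAs past the thresholds, whose groups do not overlap, and the lower row the other strand of the same hairpins, whose groups do. Lines cross at 1 point because the batch correction made the sum of each day equal.

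No change in the balance of arms passed the test in these families. Of 179 hairpins with both arms in the table, 3 (1.68%) had an unadjusted p under 0.05 for a change in the ratio of 3p to 5p, and of the 30 member hairpins 0 did, at a smallest p of 0.0564 for miR-466o. miR-466o-3p had means of 5.92 in Trim-/- and 10.7 in Trimfl/fl, and was in the table only through its Trimfl/fl mean. The filter favours a lower 3p strand in Trim-/-, so nothing is read from this p. The smallest adjusted p over all hairpins was 0.835. Without day as a block, 6 of 30 were under 0.05 (miR-466a, miR-466d, miR-466o, miR-467c, miR-669a and miR-669m), beside 10.1% of all hairpins. The fitted 3p strand was lower relative to 5p in 18 of 30 member hairpins and higher in 12. Day 4 stood apart: the 3p strand was lower relative to 5p in 23 of 30 hairpins, with a median shift of -0.89, against 55.9% and -0.19 over all hairpins of that day. On the same day 29 of 33 3p rows were lower in Trim-/- and 10 of 32 5p rows. On the other days the count was between 13 and 18 of 30.

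8 of 72 miRNAs were lower in Trim-/- on all 5 days, and 0 were higher on all 5, against 6.25% and 5.24% of all miRNAs. They were the 3 above and miR-297b-3p (-0.52), miR-669a-3p (-0.44), miR-669o-3p (-0.42), miR-297a-3p (-0.34) and miR-466m-5p (-0.20), where the numbers are log2 differences, none of them past the thresholds. Apart from miR-669o-3p, which the naming rule selected for its level, these further names were chosen after their values were seen. miR-669a-3p and miR-669o-3p are the abundant ones among them and 1 of the near-equal pairs. miR-669o-3p had 4398, 3774, 3595, 4471 and 3558 in Trimfl/fl and 2524, 3148, 3327, 2451 and 3364 in Trim-/-. The groups did not overlap, day 6 was the closest pair, and the difference was -0.42 (SE 0.26, unadjusted limma p = 0.153, adjusted p = 0.638, exact permutation p = 0.0625).

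The most abundant strand of each family and arm was also examined. miR-467a-5p, from 10 annotated copies of its hairpin, had 14702, 16788, 11488, 14763 and 14767 in Trimfl/fl and 12486, 10399, 15699, 12425 and 12420.5 in Trim-/-. It was lower on 4 days and higher on day 4, and the difference was -0.19 (SE 0.27, unadjusted limma p = 0.49, adjusted p = 0.744, exact permutation p = 0.3125), with -0.071 without day 3 and -0.36 without day 4. miR-669c-5p had 6636, 5497, 7772, 5358 and 4213 and 4656, 5796, 3519.9, 5934 and 7079.5. It was lower on 2 days and higher on 3, and its difference was -0.14 (SE 0.34, unadjusted limma p = 0.703, adjusted p = 0.87, exact permutation p = 0.75), with 0.12 without day 4 and -0.36 without day 6.

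miR-467d-3p had 2565 ± 340.3 (SD, n = 5) in Trim-/- and 3262 ± 340.3 (SD, n = 5) in Trimfl/fl, and was lower on 4 of 5 days (-0.35). miR-466c-5p had 775 ± 56.04 (SD, n = 5) and 826 ± 56.04 (SD, n = 5) (-0.09, and -0.047 to -0.16 when 1 day was left out), lower on 3 of 5 days. miR-466g, a name with no arm, had 831 ± 182 (SD, n = 5) and 1046 ± 182 (SD, n = 5) (-0.34, and -0.14 without day 4). None of these differences passed the thresholds and all their groups overlapped.

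miR-297a-5p had 821, 494, 385, 717 and 536 in Trimfl/fl and 129.7, 457, 565, 234 and 415 in Trim-/- on days 1, 3, 4, 5 and 6. The lowest Trim-/- values were on days 1 and 5, and day 4 went the other way. Its difference was -0.84 (SE 0.51, unadjusted limma p = 0.154, adjusted p = 0.638, exact permutation p = 0.3125), and -0.39 without day 1. miR-297c-3p, the most abundant 3p strand of that family, had 75.4 ± 14.8 (SD, n = 5) and 88.4 ± 14.8 (SD, n = 5) (-0.24, and -0.033 without day 1).

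The 3 lowest differences rested on values at the floor. miR-669d-5p, miR-297c-5p and miR-669i were at 1 in the Trim-/- library of day 1 and are the only members with a value at the floor. Their log2 differences were -1.92 (SE 1.46, unadjusted limma p = 0.236, adjusted p = 0.645, exact permutation p = 0.375), -1.84 (SE 1.11, unadjusted limma p = 0.147, adjusted p = 0.638, exact permutation p = 0.125) and -1.33 (SE 0.82, unadjusted limma p = 0.155, adjusted p = 0.638, exact permutation p = 0.1875). miR-669d-5p had 1, 300.2, 533, 218 and 332 in Trim-/- and 906, 442, 209, 525 and 411 in Trimfl/fl, so that day 1 alone was far from the other days. From the equal same-day sums, the values before the floor were -164 for miR-669d-5p, -89.2 for miR-297c-5p and -3.54 for miR-669i, which no read count can be. Without day 1 the differences were -0.20, -0.53 and -0.40.

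The 3 highest differences were small. miR-466o-5p had 159 ± 17.3 (SD, n = 5) in Trim-/- and 137 ± 17.3 (SD, n = 5) in Trimfl/fl, with a difference of 0.21 (SE 0.25, unadjusted limma p = 0.432, adjusted p = 0.72, exact permutation p = 0.375). miR-669c-3p (0.21) and miR-466b-5p (0.17) were the others, and none passed the thresholds. For miR-669c-3p the means were 20.1 ± 7.88 (SD, n = 5) and 17.8 ± 7.88 (SD, n = 5). Leaving out 1 day gave 0.10 to 0.31 for miR-466o-5p, 0.048 to 0.30 for miR-466b-5p and -0.15 to 0.52 for miR-669c-3p. The signs of all 3 turned when values were divided by library totals, to -0.056, -0.044 and -0.10.

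Most members were not measured closely enough to exclude a change of 1.5-fold. The 95% interval of the log2 difference held 0 for 69 of 72 and had a median width of 1.39. It reached a 1.5-fold fall for 69 of 72 and a 1.5-fold rise for 21 of 72. Members with a mean under 100 had a median difference of -0.52, against -0.25 for means of 100 to under 1000 and -0.21 for means of 1000 or more, where 13 of 13 were below 0. Over all miRNAs the same classes had -0.01, 0.04 and 0.06. All 3 members past the thresholds were among the 27 of the lowest class. Of all miRNAs, 17 of the 263 in that class were lower past the thresholds, out of 27 such miRNAs in the whole table.

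Members at other loci were also mostly below 0. The 59 with every locus in the intron had a median of -0.29 and 53 below 0, the 6 outside -0.21 and 5 below 0, and the 5 with loci in both -0.34 and 5 below 0. The difference between these medians was not tested. miR-466i-3p, on chromosome 13 and the most abundant of the 6, had 2889, 2328, 2782, 2706 and 2318 in Trimfl/fl and 1926, 2488, 2033, 2109 and 2498 in Trim-/-. It was lower on days 1, 4 and 5 and higher on days 3 and 6, and its difference was -0.24 (SE 0.25, unadjusted limma p = 0.374, adjusted p = 0.699, exact permutation p = 0.25), and -0.15 without day 1. miR-466k had -0.04 and miR-467h -0.21, with 97.2 ± 22.8 (SD, n = 5) in Trim-/- and 111 ± 22.8 (SD, n = 5) in Trimfl/fl for the latter, and both signs turned with 1 pair left out, to 0.11 for miR-466k without day 1 and 0.0498 for miR-467h without day 4. The 2 repeat-like miRNAs of chromosome 5 went the other way without passing the thresholds. miR-1187 had 165.4 ± 24.7 in Trim-/- and 104.7 ± 24.7 in Trimfl/fl (SD, n = 5), a difference of 0.67 (SE 0.30, unadjusted limma p = 0.0648, adjusted p = 0.607, exact permutation p = 0.125), and miR-574-5p had 110.2 ± 20.7 and 69.7 ± 20.7, a difference of 0.69 (SE 0.34, unadjusted limma p = 0.0911, adjusted p = 0.607, exact permutation p = 0.0625).

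Along the intron, 46 members have 1 annotated locus each. They lie in 2 stretches, 21 of them from 96.2 to 110.7 kb from the start of Sfmbt2 and 25 from 135.2 to 147.6 kb. 19 of 21 and 23 of 25 were below 0, with medians of -0.32 and -0.34. Both held abundant strands, with a highest mean of 6840 in the first stretch and 5646 in the second. The stretch between them holds hairpins with many annotated copies, such as miR-467a, with 8 of its 10 copies there. The 13 members with 2 or more loci, all in the intron, had a median of -0.19 and 11 below 0, and the 46 with 1 had -0.33 and 42 below 0.

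**Figure D5:**
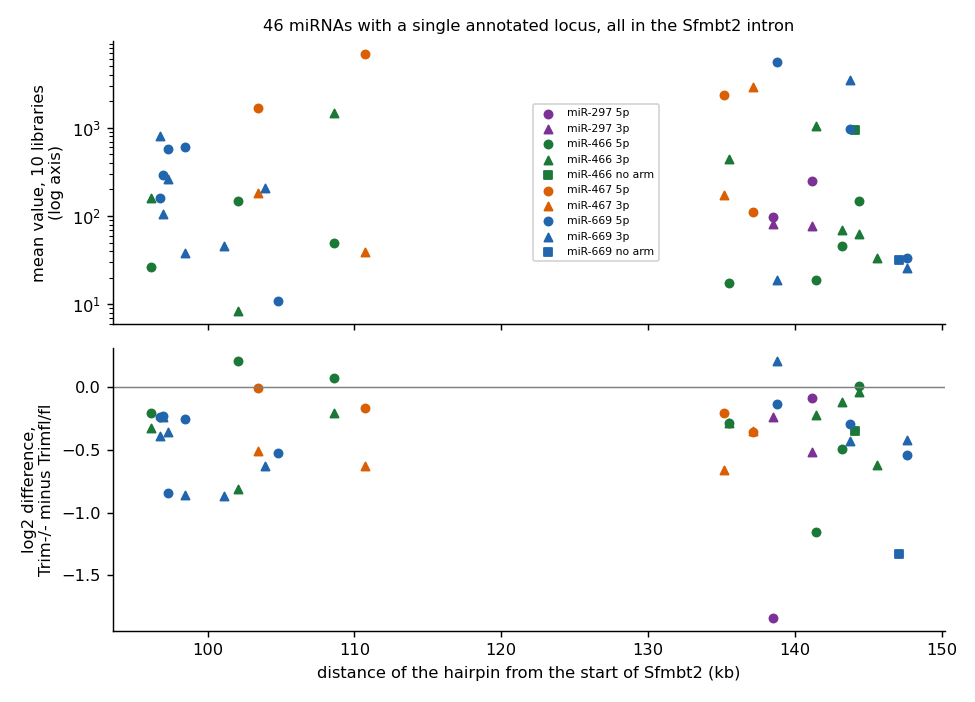
Mean normalized read count (upper panel, log axis) and fitted log2 difference between Trim-/- and Trimfl/fl (lower panel) against the distance of the hairpin from the start of Sfmbt2 in kb, for the 46 members with 1 annotated locus (miR-669d-5p, with 2 loci, is not shown). Both stretches hold abundant and rare strands, and 42 of 46 differences lie below 0.

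The clones were compared by the difference between their genotype effects. Over the 3 pairs of clone 1 the median effect of the 72 was -0.31, and over the 2 pairs of clone E3 it was -0.15. The 5p rows had -0.39 in clone 1 and 0.03 in clone E3, and the 3p rows -0.32 and -0.23. The test of clone by genotype found 0 of 72 members at an unadjusted p under 0.05, against 5.57% of all miRNAs, with a smallest p of 0.0864 for miR-297a-5p. With 3 and 2 pairs, single differences between clones ranged from -3.86 to 1.05 and were loosely measured. The lowest was that of miR-669d-5p (-3.47 in clone 1 and 0.40 in clone E3), which had a value at the floor on day 1.

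The labelled cell type was compared with its miRNAs. The rows miR-290 to miR-295, the ES cell miRNA cluster, summed to 2188720 to 3070510 in Trim-/- and 1621260 to 2498630 in Trimfl/fl, far above the sum of the 72. Of these 18 rows 13 were higher, at a median of 0.19 that was above 0 on all 5 days, opposite in sign to that of the 72, and none passed the thresholds. Of the wider ES cell list with miR-302 and miR-367, 14 of 27 rows were lower, at a median of -0.0048. Only 5 of these lower rows were among miR-290 to miR-295. All the rows of miR-302 and miR-367 were thus lower, as most of the 72 were, down to -1.85. Of the miRNAs typical of other cells, 9 of 10 fibroblast rows were in the table, and their sum was 16220 to 69973 in Trim-/- and 30853 to 84626 in Trimfl/fl, with 2 of 9 lower. 5 of 7 neural rows summed to 5865 to 9138 and 3354 to 6628, with 0 of 5 lower. Their median was 0.64 (0.18 in clone 1 and 0.76 in clone E3). The 4 endoderm or trophoblast rows summed to 8547 to 11128 and 8396 to 10979, with 1 of 4 lower. None of these rows was past the thresholds, no row can be at 0 because of the floor, and miR-214-3p, miR-137-3p and miR-219a-5p had no row. The part of other cells in the shift of the Sfmbt2 families was not tested, and in bulk samples fewer cells of a type and less RNA per cell cannot be told apart. For scale, the 48 rows of the imprinted Dlk1-Dio3 region had a median of -1.94 (-2.24 in clone 1 and -0.82 in clone E3), and 19 of them were lower past the thresholds, beside 3 of the 72 described here.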

How the data were processed

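Small RNA of 11 mES cell libraries was analysed. What the authors deposited is a signal, in units of normalized read counts. Per the study's methods the authors trimmed reads with FLICKR, aligned them with Bowtie2 (2.2.1 in the submitters' processing notes) to miRBase, normalized with DESeq2, corrected for batch in Partek 6.6, applied a floor of 1 and kept only miRNAs with at least 10 as the mean of either group. No raw read counts were used here, so depth and counting intervals are unknown and precision comes from the pairs. The labels name an mRNA kit and the methods a small RNA kit. Blank rows (9677) were left out.

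The test was limma 3.58.1 (R 4.3.3) on log2(value + 1), with genotype and day, in the 10 paired libraries, fitted to all 592 miRNAs with Benjamini-Hochberg adjustment. Libraries of 1 day were paired because their labels share the day and the clone. Deviations of same-day libraries correlated at -0.65 to -0.41, since the batch correction fixed their sums. Arm shifts used the same fit on the log2 ratio of 3p to 5p, and clones a genotype by clone contrast. A second test of each miRNA permuted the genotypes exactly within days (32 sign patterns). Fits were tested on simulated data with independent noise in each library. The tie between same-day values was not simulated, so that test does not cover it.

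Named miRNAs are those past the thresholds and the other strand of their hairpins, the most abundant of each family and arm, the 3 highest and 3 lowest differences, the 3 most abundant outside Sfmbt2, and 2 repeat-like miRNAs. Members and lists were chosen with earlier results of these data known. Alternatives were fits without the block, with clone for day, with 11 libraries, without each pair, in each clone, with 3 scalings, other pseudocounts, untransformed values, a trend and 3 filters on low values. Positions came from GENCODE M21 and sequences from RefSeq (GRCm38.p6). Figures were made in matplotlib 3.10.9 and tables in pandas 2.3.3, under Python 3.11.15.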

Additional observations from a re-analysis of the deposited data

Results flagged for a closer look

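miR-297c-5p in the Trimfl/fl library of day 1 lay apart from the other 4 Trimfl/fl libraries of the pairs. Its normalized read count was 268.1, against 88.1 to 135.8 on the other days, and the gap to the nearest value was 0.735 of the whole range of the group. The Trim-/- library of the same day was at the floor of 1, and the batch correction ties both values. It was the only 1 among 60 groups of values examined, and chance alone sets apart about 1 group in 20.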

How the results depend on the processing

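The median difference of the 72 miRNAs was below 0 under all 22 alternatives that gave one, from -0.54 to -0.15, and so was that of each of the 4 families and of the 3p rows. Without day 5 the median of miR-669 went from -0.39 to -0.23, and without day 6 that of miR-467 from -0.28 to -0.43. The number of members below 0, 65 with all pairs, was 58 to 69 with 1 pair left out and 49 in clone E3 alone. That of the 5p rows was between -0.50 and 0.03, above 0 in clone E3 alone. 0 members were higher past the thresholds under any of 23 alternatives.

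Division by library totals moved the median of all miRNAs to -0.24. The median of the 72 was then -0.54, that of miR-466 -0.48 and that of miR-467 -0.55, and 72 of 72 were below 0. Past the thresholds, 7 were lower, miR-466o-3p among them, beside 50 of all miRNAs in either direction. Median of ratios and a trimmed mean of log ratios each gave the same 3 members lower.

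The counts also depended on the replicate block by day. Without it, 8 members were lower among 101 miRNAs past the thresholds (9.97% of the table lower), and 6 member hairpins had an arm shift, beside 10.1% of all hairpins. With clone in place of day the numbers were 8, 93 and 6, and with 11 libraries 10, 116 and 8. Each of these lists of lower members held miR-466o-3p, and each list of hairpins miR-466o. That strand passed the authors' filter only through Trimfl/fl. These fits count the 10 or 11 values as independent although the batch correction tied each pair.

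Leaving out 1 pair at a time gave 0 to 3 lower members and 16 to 67 of all miRNAs past the thresholds. Among the lower members were then miR-669h-3p without day 4 and miR-466o-3p without day 6. The latter passed the authors' filter only through Trimfl/fl. There were 0 to 1 hairpins with an arm shift (miR-466d without day 5, miR-466o without day 6). 0 to 1 members differed between clones (miR-669h-3p without day 3, miR-297a-5p without day 6). Without day 1 and without day 3 no member was lower past the thresholds. In that setting, limma gave the 3 lower miRNAs unadjusted p of 0.0540 (miR-466d-5p), 0.108 (miR-466a-5p) and 0.146 (miR-669m-3p) without day 1, and 0.0502, 0.0578 and 0.0837 without day 3. Their adjusted p ranged over all alternatives from 0.0187 to 0.820 for miR-466d-5p, 0.0226 to 0.990 for miR-466a-5p and 0.0381 to 0.990 for miR-669m-3p. The sign turned with 1 pair left out for miR-466k (-0.16 to 0.11), miR-467h (-0.40 to 0.0498), miR-669c-5p (-0.36 to 0.12), miR-669c-3p (-0.15 to 0.52) and miR-669m-5p (-0.20 to 0.029).

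In clone 1 alone 0 members were lower among 59 of all miRNAs, and miR-467h (0.085), miR-669c-5p (0.13) and miR-466b-5p (-0.0044) changed sign. In clone E3 alone 1 was lower (miR-466d-5p) among 36 of all miRNAs, and miR-297a-5p (0.22), miR-669d-5p (0.40) and miR-466k (0.25) changed sign. After division by library totals miR-466b-5p (-0.10), miR-669c-3p (-0.044) and miR-466o-5p (-0.056) were below 0. With a mean of at least 100 required, 0 members were lower among 15, since the 3 lie below that mean. Limma with trend and the removal of rows with a value at the floor each gave 1 hairpin with an arm shift (miR-466o, whose 3p strand passed the authors' filter only through Trimfl/fl), and a minimum of 10 in every library 1 member that differed between clones (miR-297a-5p). miR-669m-3p lost its call in limma with trend and with a pseudocount of 10, and miR-466d-5p lost its call on untransformed values. miR-466d-5p, with values under 10, was not in the fit with that minimum. Elsewhere the cause was not tested.

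Chosen after seeing the data, the 59 members inside Sfmbt2 gave 2 lower beside 32 of all miRNAs past the thresholds, near-equal rows counted once gave 3 beside 32, and floored values set to 0 gave 3 beside 30. Counting members with the same mature sequence once was not run, since sequences were at hand for 5.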
